A study of Parasteatoda tepidariorum with 2 samples.

Results

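The 150 genes described here had the highest levels in whole cells relative to nuclei at stage 7 of the house spider *Parasteatoda tepidariorum*. They were chosen by that ratio, among 13637 genes found in both filtered stage-7 tables, of which 2445 had 500 or more molecules in cells. A level is the number of molecules of a gene per 10000 molecules of the library, summed over its barcodes, and the ratio is the level in cells over that in nuclei after 0.01 is added to each. The ratio and both stage-7 levels selected the genes and are given only as a description. The cells (stage-7_cell) came from 15 embryos pooled in 1 library, and the nuclei (stage-7_nucleus) from 20 embryos of another egg sac pooled in 1 library, both from wild-type embryos at stage 7 given no agent. A deposited table of late stage-5 nuclei (late stage-5_nucleus), from an earlier stage of the same species, was not used by the rule. It is tied to no sample in the labels used here and was reprocessed from an earlier, separate experiment, so that stage and experiment cannot be told apart. With 1 library per condition, no test between them was possible.

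A library of whole cells carries the messages of the cytoplasm together with those still in the nucleus. A library of nuclei carries transcripts being made or processed, with only those cytoplasmic messages that stay attached to or mixed with the nuclei. Messages for ribosomes, the cytoskeleton and mitochondria are typically abundant and stable in the cytoplasm of animal cells. In the study, reads in introns were counted for nuclei but not for cells, and the embryos for cells were slightly younger than those for nuclei. The libraries also need not hold the same mix of cell types. Compartment, counting, embryo batch, age and this mix therefore cannot be told apart in the cell to nucleus ratio.

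The filtered libraries held 865 cells, 6239 stage-7 nuclei and 4820 late stage-5 nuclei, with medians of 9159, 10452 and 5413 molecules per barcode. Barcode numbers shared between libraries came to 6 for cells and stage-7 nuclei, 5 for cells and late stage-5 nuclei, and 33 for the 2 nucleus libraries. The labels describe all dissociated cells and all extracted nuclei, so no single cell type was to be checked. Intervals below are exact Poisson intervals for levels and exact binomial intervals for ratios and shares, at 95%, and cover counting error only. Ratio intervals were computed without the added 0.01. Molecule counts were not corrected for gene length.

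The gene with the highest ratio, LOC122272513, is annotated as a long non-coding RNA. Its level was 6.88 (6.71–7.06) in stage-7_cell, 0.499 (0.482–0.516) in stage-7_nucleus and 0.173 (0.158–0.190) in late stage-5_nucleus. The ratio of cells to stage-7 nuclei was 13.6 (13.2–14.4), and it was the only gene of the 2445 with a ratio of 10 or more. LOC107444240 followed with 3.41 (3.29–3.54), 0.387 (0.373–0.402) and 0.298 (0.277–0.319), a ratio of 8.61. LOC107452981 stood at 1.05 (0.984–1.12) in cells, 0.137 (0.128–0.146) in stage-7 nuclei and 0.128 (0.114–0.142) in late stage-5 nuclei, a ratio of 7.22. For these 3 genes both nucleus libraries lay far below the cells.

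LOC107447382 is annotated as protein lethal(2)essential for life, a member of the small heat shock protein family named in *Drosophila*. Its levels were 3.17 in cells, 0.524 (0.507–0.542) in stage-7 nuclei and 0.0216 (0.0164–0.0280) in late stage-5 nuclei, the last from 58 molecules. The ratio was 5.96 against stage-7 nuclei and 101 against late stage-5 nuclei, the highest of the 150 in the latter. LOC107456306 (2.49 in cells, 0.528 in stage-7 nuclei), LOC107447097 (1.43 and 0.322) and LOC107438682 (0.603 and 0.134) had ratios of 4.64, 4.33 and 4.25. No gene after these 7 reached a ratio of 4, and the next 3, at 3.54 to 3.66, were LOC107455044, LOC107436574 and LOC107449559, the last annotated as WW domain-binding protein 2. Most of the 150 lay close to the limit of the rule, with a median ratio of 2.02 against 0.981 over the 2445 genes. A ratio of 2 or more was found for 82 of the 2445 (3.35%), all within the 150 because the rule took the highest.

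At that limit, LOC107442218 (grpE protein homolog, mitochondrial, a partner of the mitochondrial heat shock protein 70) had a ratio of 1.82 (1.74–1.91). LOC107448932 had 1.81 (1.67–2.00) and LOC107443267, the 150th, 1.80 (1.67–1.98). Just outside were LOC107436998 with 1.80 (1.77–1.84), LOC107456883 with 1.79 (1.64–2.00) and LOC107447686 with 1.79 (1.77–1.81). The intervals on both sides of the limit overlap, so the order there is not fixed by these counts.

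**Figure D1:**
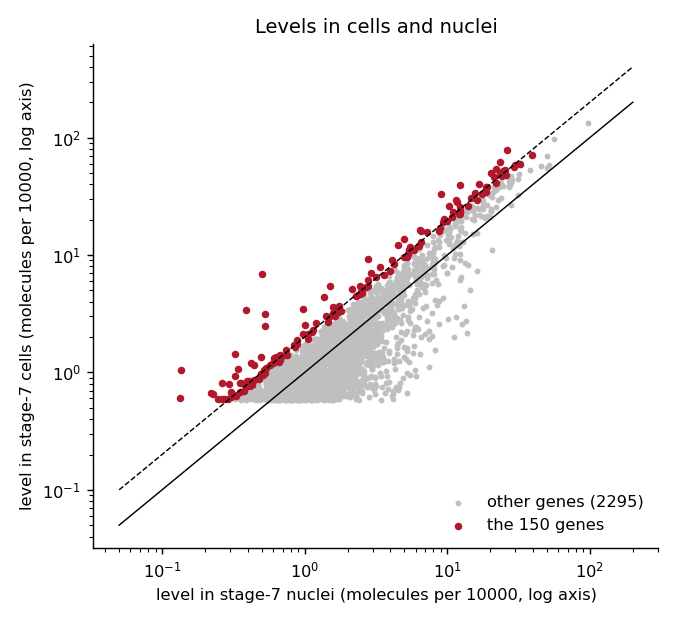
Level of each of the 2445 genes in stage-7 nuclei (x axis) and stage-7 cells (y axis), in molecules per 10000 on log axes, with 1 point per gene. The solid line marks equal levels and the dashed line a level 2 times higher in cells. The 150 genes (red) follow the upper edge of the cloud over the whole range of levels, and a few low genes stand far above it, up to a ratio of 13.6.

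The genes included many with high counts. Of the 150, 53 had a level of 10 or more in cells, and these supplied 86.6% of the molecules from the whole set in cells. They made up 32.1% of the 165 genes at that level, whereas the 67 genes between 1 and 10 made up 5.08% of 1320 and the 30 genes below 1 made up 3.13% of 960. The median ratio of all genes also differed between these classes, from 0.815 below 1 to 1.04 between 1 and 10 and 1.63 at 10 or more. The level in cells that cuts these classes is also the numerator of the ratio and was used by the rule, so nothing is read from this order.

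The 5 members with most molecules in cells were LOC107452332, LOC107445993, LOC107437922, LOC107451683 and LOC107446560, none of which has a product name in the sources used here. LOC107452332 had a level of 78.0 (77.5–78.6) in cells, 26.4 (26.3–26.5) in stage-7 nuclei and 6.22 (6.13–6.31) in late stage-5 nuclei. LOC107445993 had 71.7, 39.1 (38.9–39.2) and 9.34 (9.22–9.46), and LOC107437922 had 61.6 (61.1–62.1), 23.3 (23.2–23.4) and 13.96 (13.8–14.1). LOC107451683 (59.3, 32.2 and 10.3) and LOC107446560 (57.9, 29.9 and 7.42) complete the group. All 5 were ordered in the same way, highest in cells, lower in stage-7 nuclei and lowest in late stage-5 nuclei. The rule fixed the first step of this order. The other step was common at a level of 10 or more in cells. There, 88.7% of members and 75.9% of other genes were 2-fold or more lower in late stage-5 than in stage-7 nuclei.

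Product names were at hand for 53 of the 150 genes and 731 of the 2445. They came from lists of cluster markers and positional genes. Named genes are therefore not a random draw, and the 97 genes without a name supplied 89.5% of the molecules of the set in cells. All 2445 genes gave 6.13% of their number to the 150, and the lists below are read against that share without a test.

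The translation machinery was represented by 2 of 5 named cytosolic ribosomal proteins. LOC107451224, an L15-like protein of the large ribosomal subunit, had levels of 9.32, 2.78 and 1.56 in cells, stage-7 nuclei and late stage-5 nuclei, a ratio of 3.35. LOC122268356, an L12-like protein, had 4.95, 2.51 and 1.12, a ratio of 1.97. Of the 13 genes listed as translation factors, only LOC107448614 (subunit F of eukaryotic translation initiation factor 3) belonged to the 150, with a ratio of 1.95. That count is too low, since the word patterns placed the member LOC107441734 in the list of transcription factors and signalling. LOC107441734 (the delta subunit of eIF-2B, the exchange factor of the initiation factor eIF2) had levels of 5.48 (5.32–5.64), 2.77 (2.73–2.81) and 1.95 (1.90–2.00). Outside these lists, and named after their values were seen, LOC107445237 (BRX1 homolog), LOC107453611 (UTP23 homolog) and LOC107441365 (HEAT repeat-containing protein) had ratios of 1.82, 1.96 and 2.69.

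Of 15 named cytoskeletal genes, 5 were members, while the median ratio of the 15 was 0.717. LOC107452384 (tubulin beta chain) had 16.98 (16.7–17.3) in cells, 8.92 (8.85–8.99) in stage-7 nuclei and 3.65 (3.58–3.73) in late stage-5 nuclei. LOC107451299 (tubulin alpha chain) had 16.3 (16.03–16.6), 6.46 (6.40–6.52) and 2.68 (2.61–2.74). Actin (LOC107443493), the actin-binding protein profilin (LOC107456443) and the myosin regulatory light chain sqh (LOC107437570) had ratios of 1.88, 1.90 and 2.11. The list was thus split, since its other 10 genes lay below the limit of the rule.

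Of 50 named RNA-processing genes, 6 were members. LOC122273507, an H/ACA ribonucleoprotein subunit of the complex that modifies ribosomal RNA, had 4.61 (4.47–4.75) in cells, 2.38 (2.35–2.42) in stage-7 nuclei and 1.81 (1.76–1.86) in late stage-5 nuclei. LOC107437072 (pno1, which acts in assembly of the small ribosomal subunit in yeast) had 4.48 (4.34–4.62), 2.31 (2.27–2.34) and 0.818 (0.784–0.853). The other members were splicing proteins, namely LOC107438325 (Sm D3, ratio 2.29), LOC107448440 (pre-mRNA-processing-splicing factor, 2.00), LOC107438744 (RNA-binding protein with serine-rich domain, 1.94) and LOC107452781 (a U5 helicase, 1.88). All 6 had ratios between 1.88 and 2.29.

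The list of transcription factors and signalling held 81 named genes and 4 members, of which LOC107441734 above and LOC107450128 (a selenide, water dikinase-like protein) were taken in only by a word in their names. LOC107437627 (ATF-4, a transcription factor of the stress response in mammals) had levels of 9.01 (8.81–9.22) in cells, 4.09 (4.04–4.14) in stage-7 nuclei and 1.23 (1.18–1.27) in late stage-5 nuclei. The remaining member was a zinc finger protein, LOC107446182, with a ratio of 1.97. Oxidative phosphorylation gave 2 of 17 genes (LOC107440884, the mitochondrial phosphate carrier, 1.96, and LOC107436878, a succinate dehydrogenase subunit, 1.82). Histones and chromatin gave 2 of 22 (LOC107443687, histone H2B, 3.21, and LOC107446714, histone H4-like, 2.02).

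The proteasome gave 1 of 20 genes (LOC107455137, 1.86), and chaperones 1 of 16 (LOC107454991, a dnaJ homolog, 1.96). The word patterns behind the chaperone list missed LOC107447382, LOC107436797 (alpha-crystallin A chain) and LOC107442218 (grpE homolog), which also belong to the 150, so its count is too low. Neither the 7 named mitochondrial ribosomal proteins, the 8 secretory genes nor the 3 glycolytic genes had a member. Of 94 genes called uncharacterized, 10 were members, led in cells by LOC122272075 (7.90 in cells, 3.36 and 0.961 in the nuclei of the later and earlier stage) and LOC122273685 (6.49, 3.19 and 0.669). Most lists thus gave few members, and the larger shares rest on lists of 5 and 15 genes.

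The annotation of another assembly of the species (CAS_Ptep_4.0) listed all but 13 of the 150 genes. It called 131 protein-coding, 4 long non-coding RNA (of 23 among the 2445) and 2 other RNA (of 5). Of the 2445, 87 were not in it. In that annotation, 4 pairs of the 150 were next to each other, among them LOC107438254 with LOC110283236 and LOC107448614 with LOC107448612. Most of the 150 were thus not placed side by side. Pairs were not counted for other genes, so whether 4 is many or few for a set of this size was not tested.

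The 150 genes together supplied 20.0% of all molecules in stage-7_cell (19.9–20.0), 9.32% in stage-7_nucleus (9.31–9.32) and 3.20% in late stage-5_nucleus (3.20–3.21). Among single barcodes, the share ran from 8.39% to 26.3% in cells with a median of 20.4%, from 1.45% to 16.4% in stage-7 nuclei with a median of 9.0%, and from 1.15% to 15.9% in late stage-5 nuclei with a median of 3.14%. No stage-7 nucleus of 6239 reached the median cell, and 1 cell of 865 lay at or below the median nucleus. Of the cells, 49 had a share below that of the highest nucleus. The rule fixed the order of the stage-7 libraries, but not the width of their overlap, nor the place of the late stage-5 nuclei, of which 4 of 4820 reached the median stage-7 nucleus.

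**Figure D2:**
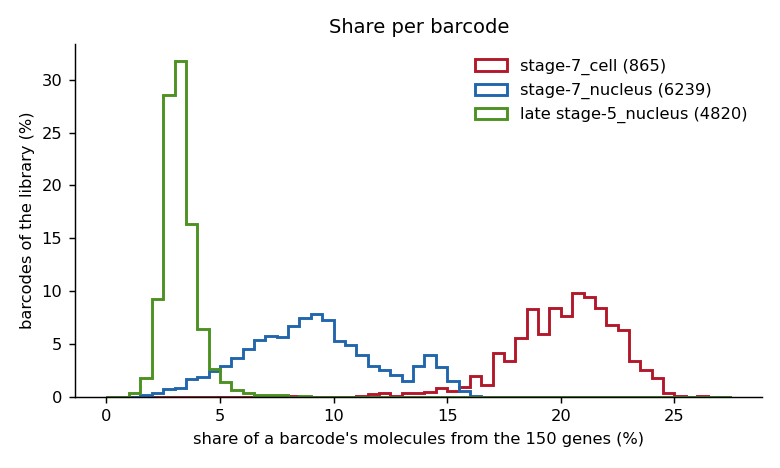
Share of each barcode's molecules from the 150 genes (x axis, %) against the percentage of barcodes of the library (y axis), in bins of equal width, for cells (red), stage-7 nuclei (blue) and late stage-5 nuclei (green). Cells centre on 20.4%, late stage-5 nuclei form a narrow peak at 3.14%, and stage-7 nuclei spread between them with a second, smaller peak at the upper end.

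To compare the spread at equal depth, each barcode was thinned to 3000 molecules, which left out no stage-7 barcode and 223 late stage-5 nuclei. The standard deviation of the share over barcodes was then 2.38 percentage points in cells, 3.02 in stage-7 nuclei and 0.819 in late stage-5 nuclei. Drawing 3000 molecules at the mean share alone would give 0.733, 0.526 and 0.322. Barcodes of every library thus differed by more than counting error, and stage-7 nuclei differed most in proportion. Across thinned barcodes, the share correlated with the number of genes found (Pearson r = −0.832 in cells, −0.911 in stage-7 nuclei, −0.136 in late stage-5 nuclei). When only 2500 molecules of other genes were kept per barcode, so that the 150 themselves could not lower the number of genes, r was −0.772, −0.876 and −0.0787 (31 late stage-5 nuclei left out). These are descriptions over barcodes of 1 library each, in which all points share library and preparation.

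The 53 genes with high counts and the other 97 varied together among stage-7 nuclei, with r = 0.735 between their summed molecules over thinned nuclei. In cells and late stage-5 nuclei r was 0.293 and 0.341. Over thinned nuclei of stage 7, the 53 genes had between 29 and 465 molecules (median 234) and the 97 others between 8 and 75 (median 34). In cells, the 53 had between 211 and 700 (median 532), and the 97 between 43 and 119 (median 80).

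Barcodes were grouped into Seurat clusters built without the 150 genes, so that these could not define the clusters. Stage-7 nuclei fell into 11 clusters, in which the share of molecules from the 150 ran from 4.16% (4.14–4.19) in cluster 8 to 14.3% (14.3–14.3) in cluster 3. The highest cluster thus had 3.44 times the share of the lowest. The share of other genes of like level was not computed. For single genes with a level of 10 or more in cells, the median fold over these clusters was 4.35 for members and 4.44 for other genes. A wide span is thus not particular to the 150. The 791 nuclei of cluster 3 had the fewest genes and molecules of any cluster, on average 2649 and 8965. At 3000 molecules they still had fewer genes, 1402 against 1640 to 1732 elsewhere. It carried the markers of several regions at moderate levels, with Pt-twist (mesoderm) at 0.584, Pt-otd (head) at 0.620, Pt-gas1 (thorax) at 0.316 and Pt-AP2-A (opisthosoma) at 0.377. The study set aside its own nucleus clusters with low gene and molecule numbers as possible artefacts of clustering, and whether they hold the same nuclei was not tested. Without these nuclei the share in stage-7_nucleus was 8.74%.

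Of the 150 genes, 119 had their highest cluster level in cluster 3, against 40.3% of all 2445 genes, which were not matched to the 150 for level. The median of its level over that of the other stage-7 nuclei was 1.56 for the 150 and 1.05 for the remaining genes. Set against cluster 3 alone, the ratio of cells to nuclei had a median of 1.45 and reached 2 in 30 genes. Set against the other clusters, the median was 2.14, the lowest 1.77, and 116 genes reached 2. The rule used these same cells and nuclei, so these ratios are a description, and the part that the low gene number of cluster 3 played was not tested. LOC107454250 went the other way, with a level of 0.0212 (15 molecules) in cluster 3 against 0.198 to 0.519 in the other clusters. The neighbouring genes LOC110283236 and LOC107438254, the latter named after its values were seen, were also lowest there, at 0.606 against 1.98 to 3.06 and at 0.130 against 0.242 to 0.526.

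Outside cluster 3, the lowest shares were in clusters 8 and 6. Cluster 8 (240 nuclei, 4.16%) had the highest levels of At_eW_012_A08 (22.8), a marker of endodermal and extraembryonic cells, and of the endoderm marker LOC107436131 (2.33). Cluster 6 (366 nuclei, 7.26%) had the highest levels of the extraembryonic markers LOC107439300 (3.36), LOC107441150 (1.51) and LOC107448880 (18.2). In these clusters nuclei had the most genes, on average 4122 and 3897. The other 8 clusters lay between 8.80% and 9.86%, including clusters 7, 9 and 10, in which Pt-twist reached 1.32 to 3.01.

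Cells fell into 6 clusters, in which the share ran from 18.3% (18.2–18.4) in cluster 5 to 20.7% (20.6–20.7) in cluster 1, a ratio of 1.13. Cluster 5 (83 cells) had the highest At_eW_012_A08 (1.58), LOC107436131 (0.663) and LOC107439300 (1.37) of the cell clusters. In both stage-7 libraries the lowest share thus lay in the cluster with most LOC107436131, and the gap was far smaller in cells. In late stage-5_nucleus, 9 clusters had shares from 2.43% (cluster 5, 323 nuclei, with 33.8 of At_eW_012_A08) to 4.23% (cluster 7, 155 nuclei). Nuclei of cluster 7 had the fewest genes and molecules, on average 1990 and 3665, but at 3000 molecules their 1782 genes lay within the range of the other clusters (1682 to 1791). Of the 150 genes, 105 were highest in cluster 7, against 49.4% of the 2445, again not matched for level.

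**Figure D3:**
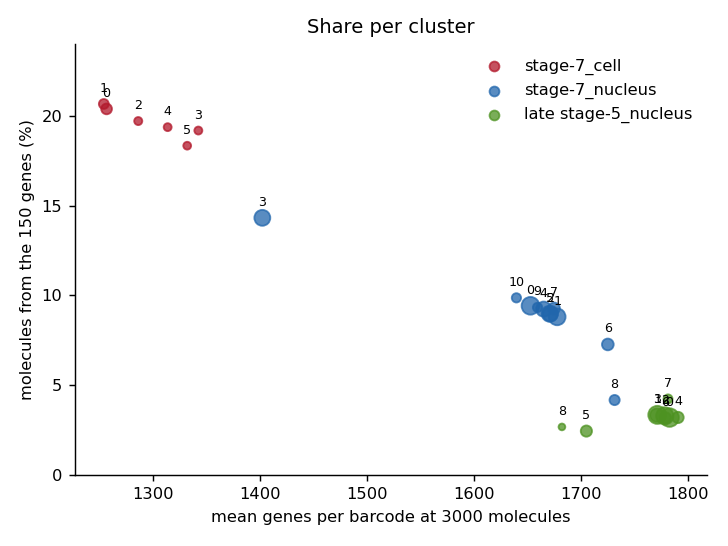
Share of molecules from the 150 genes (y axis, %) against the mean number of genes per barcode at 3000 molecules (x axis), with 1 point per cluster, sized by its number of barcodes and numbered within its library. Stage-7 nuclei of cluster 3 (14.3%) lie between the cell clusters (18.3% to 20.7%) and the other stage-7 nuclei (4.16% to 9.86%), and the late stage-5 nuclei lie at 2.43% to 4.23%.

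For single genes, the spread among barcodes was measured as the variance over the mean of thinned counts, which is 1 where barcodes differ by counting error alone. In cells, the median over the 150 was 1.17, against 1.12 over the 2445 genes. For the 148 members with at least 5 other genes of similar mean, the median was 1.16 against 1.15 for those genes, and 70 of the 148 lay above them. In stage-7 nuclei the medians were 1.17 and 1.18 (51 of 150 above), and in late stage-5 nuclei 1.19 and 1.23 (37 of 150 above). In cells about as many members lay above as below genes of similar level, and in both nucleus libraries most lay below them. The most even in cells were LOC107438744, LOC107450991, LOC107455225 (MIC19, a protein of the mitochondrial inner membrane), LOC122272157 and LOC107446189 (a dynamin-1-like protein, which divides mitochondria in mammals), with values of 0.964 to 0.983.

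A few genes stood far above. LOC107455266 had a variance over mean of 28.2 in cells, 5.04 in stage-7 nuclei and 3.81 in late stage-5 nuclei, with 0 to 222 molecules per thinned cell (median 5). Its level was 90.5 in cell cluster 5 and 13.4 to 18.9 in the other cell clusters. In stage-7 nuclei it was highest in cluster 8 (29.9), and in late stage-5 nuclei in clusters 8 (40.4) and 5 (33.4), which had the highest At_eW_012_A08 of that library. LOC107437922 went the other way, with a variance over mean of 8.86 in cells and a level of 20.6 in cell cluster 5 against 57.9 to 68.5 in the others. In stage-7 nuclei it was likewise lowest in cluster 8 (7.36) and then cluster 6 (13.4).

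Actin (LOC107443493) had a variance over mean of 6.11 in cells, with levels of 35.5 in cluster 5 and 25.2 in cluster 3, where Pt-twist was highest (3.06), against 6.80 to 9.38 in the remaining clusters. In stage-7 nuclei it was highest in cluster 8 (19.05), and in late stage-5 nuclei it reached 24.5 in cluster 8, the 25 nuclei with Pt-ets4, a marker of the cumulus mesenchymal cells, at 36.6. LOC107442666 (2.76) and LOC107445993 (2.63) had smaller spreads in cells, with cluster levels of 45.7 to 61.7 and 62.0 to 75.4. High spread thus came with uneven levels over clusters for the first 3 genes, and less so for the last pair.

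Between clusters, 21 of the 150 genes differed 2-fold or more in cells (23.4% of the 2445 did), and 132 did in stage-7 nuclei (74.4% of the 2445). The libraries differed in their number of clusters. At a level of 10 or more in cells, the median fold was 1.20 for members and 1.24 for other genes in cells, and 4.35 and 4.44 in nuclei. Between 1 and 10 it was 1.43 and 1.51 in cells, and 3.26 and 2.80 in nuclei. Below 1 it was 1.58 and 1.65 in cells, and 2.94 and 2.65 in nuclei. LOC107438548, an uncharacterized gene, differed most in cells, with 4.93 in cluster 4 and 2.14 in cluster 3 against 0.0658 to 0.136 elsewhere. Those clusters had Pt-twist at 1.75 and 3.06, and in stage-7 nuclei the gene was highest in clusters 7, 9 and 10, at 3.87, 2.27 and 1.88. Cell clusters 4 and 3 held 89 and 92 of 865 cells, and nucleus clusters 7, 9 and 10 held 364, 180 and 176 of 6239 nuclei. The ratio of 1.95 for LOC107438548 was summed over all barcodes, so the mix of cell types enters it. How far it does was not tested. LOC107445973 had 1.93 in cell cluster 5 and 0.987 in cluster 0 against 0.0547 (5 molecules) in cluster 2. The long non-coding RNA LOC107442472 had 0.492 to 1.82 over the cell clusters. The genes named here did not all peak in the same cell cluster. LOC107455266, actin and LOC107445973 were highest in cluster 5, and LOC107438548 in cluster 4. The remaining genes with such differences were not tallied.

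**Figure D4:**
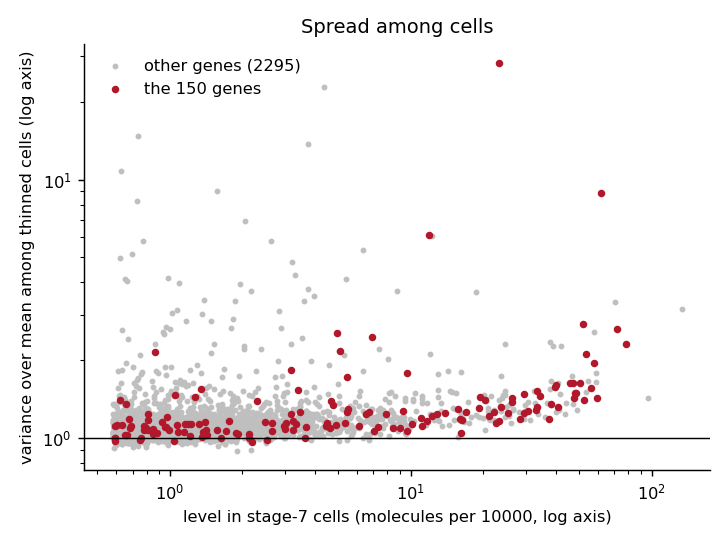
Variance over mean among cells thinned to 3000 molecules (y axis, log) against the level in cells (x axis, molecules per 10000, log), with 1 point per gene. The line marks 1, the value for counting error alone. Most of the 150 genes (red) lie within the cloud of other genes (grey) at their level, and LOC107455266 (28.2), LOC107437922 (8.86) and LOC107443493 (6.11) stand above it.

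The late stage-5 nuclei gave a comparison of cells with a nucleus library that the rule had not used, although the cells were the same and both stage and experiment differed as well. Of the 150 genes, 132 were 2-fold or more higher in cells than in late stage-5 nuclei, against 30.3% of the 2445, and 147 were higher at all. The median ratio was 5.96 for the 150 and 1.15 for the 2445, and 29 of the 45 genes of the 2445 with a ratio of 10 or more were members. The level in cells is the numerator of this ratio and was used by the rule, so part of this excess was set in advance. The ratio is also given within classes of that level, which does not remove the dependence. At 10 or more, the median was 7.50 for the 53 members and 5.16 for the 112 other genes. Between 1 and 10 it was 4.71 against 1.24, and below 1 it was 3.41 against 0.799.

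Between the nucleus libraries, 95 of the 150 genes were 2-fold or more lower in late stage-5 than in stage-7 nuclei, against 25.9% of the 2445. Only 3 were 2-fold or more higher, against 6.42%. The median of late stage-5 over stage-7 nuclei was 0.373 for the 150 and 0.858 for the 2445. The rule used the stage-7 nucleus level, so this contrast is not independent of it. At a level of 10 or more in cells, members and other genes had nearly the same median, 0.277 and 0.293, and 88.7% and 75.9% of them were 2-fold lower. Below that level they lay apart, at 0.495 and 0.823 between 1 and 10, and at 0.563 and 1.07 below 1.

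Lowest in late stage-5 nuclei relative to stage-7 nuclei, the later stage, were LOC107457417, LOC110283236, LOC107447382, LOC107436797 and LOC107438261. LOC107457417, a long non-coding RNA, had 12.2 in cells, 4.48 (4.43–4.53) in stage-7 nuclei and 0.146 (0.132–0.161) in late stage-5 nuclei, a nucleus ratio of 0.0347. LOC110283236 had 5.10 (4.95–5.25), 2.14 (2.11–2.18) and 0.0843 (0.0737–0.0961). LOC107436797 is annotated as alpha-crystallin A chain, which in vertebrates is a small heat shock protein of the lens, and had 1.72 (1.63–1.81), 0.841 (0.820–0.863) and 0.0563 (0.0477–0.0661). LOC107438261 had 0.655, 0.229 and 0.00970, the last from 26 molecules.

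The 3 genes that were 2-fold higher in late stage-5 nuclei were LOC107441844, LOC107451960 and LOC107448189. LOC107441844 had 0.663 (0.610–0.720) in cells, 0.219 (0.208–0.230) in stage-7 nuclei and 1.32 (1.27–1.36) in late stage-5 nuclei, a nucleus ratio of 5.79. LOC107451960 had 0.977 (0.912–1.05), 0.491 (0.475–0.508) and 1.253 (1.21–1.30), and LOC107448189 had 1.57 (1.48–1.65), 0.739 (0.719–0.760) and 1.78 (1.73–1.83). They were also the 3 members that were lower in cells than in late stage-5 nuclei, at ratios of 0.508 for LOC107441844, 0.781 for LOC107451960 and 0.882 for LOC107448189. LOC107439707 (0.594, 0.274 and 0.551) and LOC107454250 (0.811, 0.264 and 0.474) came next, with nucleus ratios of 1.98 and 1.77.

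**Figure D5:**
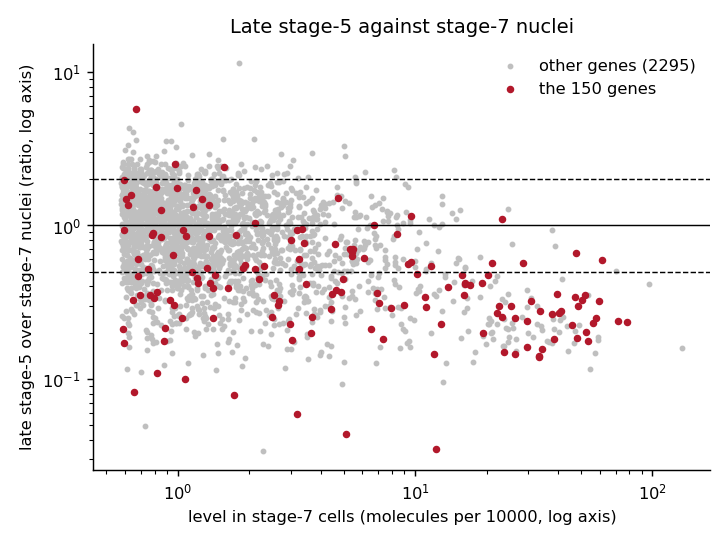
Level in late stage-5 nuclei over that in stage-7 nuclei (y axis, log) against the level in stage-7 cells (x axis, molecules per 10000, log), with 1 point per gene. The solid line marks equal levels and the dashed lines a 2-fold difference either way. Most of the 150 genes (red) lie below 1, as do other genes (grey) with high levels, and LOC107441844 (5.79) stands at the top of the red points.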

How the data were processed

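Single cells and nuclei were captured with the BD Rhapsody whole-transcriptome system, and the authors aligned the reads with STAR 2.5.2b to the Ptep_3.0 assembly, with an annotation that also counted intronic reads for nuclei. The authors deposited counts of molecules per gene and barcode before and after their filter on genes and molecules per barcode, meant to remove poor barcodes and possible doublets. No doublet caller was run. Counts after the filter were used here, and the matrices before it only as an alternative. The log-normalized tables were not used. Levels, ratios, intervals and thinned counts were computed in Python 3.11.15 (scipy 1.17.1 for intervals, numpy 2.4.6, pandas 2.3.3) and tested on simulated data. They carry no p-value. Clusters used Seurat 5.3.0 in R 4.3.3 with 2000 variable features, 50 principal components and a resolution of 0.5, without the 150 genes. Genes are named as the highest and lowest of each measure (3 to 10 each), the members with most molecules overall and in lists made from product names given in the study's supplementary marker tables, and the markers, and the remaining named products were chosen after their values were seen. The genes and lists were chosen with earlier results of these data known. The assembly of the gene table differs from that of the files, so no coordinates or gene lengths are given. Alternatives changed the barcodes kept, the molecule minimum, the added constant, the weighting, scaling and fold, the thinning and the clustering.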

Additional observations from a re-analysis of the deposited data

How the results depend on the processing

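No paired analysis was possible because each condition had 1 library, and for the same reason no replicate could be left out. Barcodes removed by the filter had medians of 21378.5 molecules in stage-7_cell, 20472.5 in stage-7_nucleus and 2244 in late stage-5_nucleus. At stage 7 these lie above the medians of the barcodes kept, and at late stage 5 below. The median ratio of cells to stage-7 nuclei, 2.02, was 1.87 over all barcodes before the filter, 1.54 over removed barcodes alone, 2.14 without cluster 3, 2.29 when scaled to molecules outside the 150 genes, and 2.15 with genes reselected at a minimum of 200 molecules. The ratio to late stage-5 nuclei, 5.96, became 3.72 over removed barcodes, 5.37 at a minimum of 200, 5.24 with 0.1 added, 7.21 scaled outside the 150 and 5.16 scaled to the median of all genes. The 3 genes higher in late stage-5 than in stage-7 nuclei became 6 over removed barcodes, 7 and 1 at minimums of 200 and 1000, 6 scaled to the median, and 9 and 1 at folds of 1.5 and 4. At a fold of 4, 37 genes were lower.

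The share in cells, 20.0%, was 19.4% over all barcodes and 17.8% over removed ones, 15.1% and 25.8% with genes reselected at minimums of 200 and 1000, 22.8% with 0.1 added and 21.8% by the mean over barcodes. The share in stage-7 nuclei, 9.32%, was 10.3%, 12.2%, 6.67%, 12.7%, 10.9% and 10.03% in the same order, and 8.74% without cluster 3. That in late stage-5 nuclei, 3.20%, was 3.24%, 4.49%, 2.49%, 4.21%, 3.63% and 3.43%, and 3.18% without cluster 7. Thinning to 2000 molecules and another seed gave 20.2% and 20.2% in cells, 9.15% and 9.15% in stage-7 nuclei, and 3.24% and 3.22% in late stage-5 nuclei, values in which barcodes weigh equally.

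The highest over the lowest cluster share in cells, 1.13, was 1.45 over all barcodes, 1.17 over removed ones, 1.14 and 1.14 at minimums of 200 and 1000, 1.14 with 0.1 added, 1.11 by the mean over barcodes, 1.14 at a resolution of 1.0 and 1.15 with 30 components. In stage-7 nuclei, 3.44 became 2.59, 2.06, 3.67 (minimum of 1000), 3.64 (0.1 added), 3.47 (resolution) and 2.37 without cluster 3. The variance over mean in cells, 1.17, was 2.41 without thinning. The rule chose the 150 for high ratios in the same counts that most alternatives reuse, so recomputed ratios above 1 were largely set in advance. Of 368 ratios recomputed for 46 named members, 367 stayed above 1, and LOC107445973 fell to 0.985 over removed barcodes. The cause was not tested in these cases. Of the 150 genes, 34, 36, 11 and 13 were lost from the sets chosen at minimums of 200 and 1000, with 0.1 added and by the mean over barcodes.

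With 1 library per condition, the error between embryos is unknown. Cells and nuclei differ in egg sac, exact age, counting of introns and the share of barcodes in clusters with Pt-twist. Late stage-5 nuclei differ in stage and experiment as well. Genes with fewer than 500 molecules in cells were not considered as members. Overlapping genes and near copies were not told apart.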
